A study of Homo sapiens with 3 samples.

Results

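The genes described here are 10 regulators that set the balance between epithelial and mesenchymal states, 5 mesenchymal (ZEB1, ZEB2, SNAI1, SNAI2 and TWIST1) and 5 epithelial (GRHL2, GRHL3, OVOL1, ESRP1 and ESRP2). They were found by gene symbol in a table of 50867 genes, and all 10 were present and passed the filter on low counts. The 10 are transcription factors except ESRP1 and ESRP2, which are splicing factors. Expression was measured by RNA sequencing of polyA+ RNA in UM-UC-3 cells, a human bladder cancer line in long use. Cells carried a lentiviral scramble hairpin (shControl, n = 1) or either of 2 lentiviral hairpins aimed at BLACAT2, a long non-coding RNA (shBLACAT2, n = 2; shRNA 1 and shRNA 2), and all were selected with puromycin for 2 weeks. The comparison asks which genes depend on BLACAT2.

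All libraries are from stable derivatives of 1 cell line, each hairpin has 1 library, and the control has no replicate. Separate cultures are not named in the labels. The p-values rest only on the spread between the hairpin libraries, which may be technical or may differ by hairpin. Library totals lay between 16216947 and 17670199 counts. LINC00958, the symbol of the targeted RNA, was counted 938, 816 and 1062 times in the control, shRNA 1 and shRNA 2. With edgeR's TMM scaling, that was 0.735 times the control under shRNA 1 (95% counting interval 0.668 to 0.808) and 0.995 times under shRNA 2 (0.910 to 1.09). The library labelled shRNA 2 thus showed no lower level of the RNA it was meant to deplete, and each direction below is that of a labelled library. Keratins KRT7, KRT8, KRT18 and KRT19 were counted at 4538 to 19944 in the control, as in an epithelial cell, while the mesenchymal marker vimentin, VIM, had 7583 counts there, 1061 under shRNA 1 and 154 under shRNA 2 (these genes were chosen after their values were seen). Of markers of other cell types, PTPRC, CD3D, CD3E, MS4A1 and CD68 of leukocytes had 0 counts in the control, and the 5 fibroblast markers COL1A2, COL3A1, DCN, LUM and PDGFRA together made 2.83 CPM (counts scaled to a library of fixed size) there, 0.111 under shRNA 1 and 0.289 under shRNA 2. The fibroblast markers, at 2 to 20 counts in the control, thus moved in the same direction as the mesenchymal regulators, and their part in those results was not tested. In bulk RNA, fewer cells of a type and less RNA per cell cannot be told apart.

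ZEB1, ZEB2, SNAI1, SNAI2 and TWIST1 encode DNA-binding proteins that repress epithelial genes such as E-cadherin, and the ZEB and SNAI proteins do so at E-boxes with the core CACCTG. GRHL2, GRHL3 and OVOL1 encode factors that hold epithelial genes on and counter ZEB1. ESRP1 and ESRP2 encode RNA-binding proteins that make the epithelial splice forms of genes such as FGFR2 and CD44. ZEB1 and GRHL2, and ZEB1 and ESRP1, are known from other systems as opposing pairs in which each side keeps the other low.

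Promoter sequence was available for 3 of the 10 regulators (RefSeq, GRCh38.p14, 10 transcript starts of ZEB1, ZEB2 and GRHL3). It is shown for GRHL3, which stood furthest above the control of the 10, and for ZEB1, the repressor whose E-box was searched. Capitals mark CACCTG or its reverse complement CAGGTG, and each line runs 5′ to 3′ on the plus strand.

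GRHL3 upstream start, chr1:24319107-24319341: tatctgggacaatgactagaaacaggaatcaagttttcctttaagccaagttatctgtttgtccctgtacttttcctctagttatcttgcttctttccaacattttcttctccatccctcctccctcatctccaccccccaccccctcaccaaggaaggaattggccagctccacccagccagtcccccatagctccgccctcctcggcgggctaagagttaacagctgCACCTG

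GRHL3 downstream start, chr1:24322790-24323039: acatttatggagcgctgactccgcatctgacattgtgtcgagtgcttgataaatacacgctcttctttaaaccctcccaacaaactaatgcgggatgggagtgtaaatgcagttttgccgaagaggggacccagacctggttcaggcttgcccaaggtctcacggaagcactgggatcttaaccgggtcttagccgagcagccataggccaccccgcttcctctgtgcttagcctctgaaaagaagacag

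ZEB1 first start, chr10:31318167-31318416: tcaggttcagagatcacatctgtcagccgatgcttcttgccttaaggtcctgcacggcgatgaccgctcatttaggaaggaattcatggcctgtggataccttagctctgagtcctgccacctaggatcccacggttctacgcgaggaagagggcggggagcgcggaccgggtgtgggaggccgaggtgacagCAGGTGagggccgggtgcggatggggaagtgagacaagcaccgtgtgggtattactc

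The 250 bases before each start were searched on both strands for CACCTG, for the grainyhead motif AACNGGTT and for the OVOL motif CCGTTA, and no start held more than 1 kind of motif. The upstream GRHL3 start had 1 CACCTG, 21 bases before the start, and the downstream start had none. The printed stretch of the upstream start ends with that match, and its last 20 bases lie in the first exon of a GENCODE transcript. The first ZEB1 start had 1 CAGGTG, 57 bases before it, and the third had a pair of E-box matches, 242 and 85 bases before it. Of all 10 starts 3 held this E-box, against 17.5% of 35116 promoter windows of that length. No start of the 3 genes held AACNGGTT (1.49% of all windows), and 1 of ZEB1 held CCGTTA (2.45%). A match is only a run of letters, and gene-level counts do not show which start was used.

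In the control library the 10 regulators did not divide by side. By the authors' FPKM, which is counts per gene length and library total, SNAI2 was highest at 22.8 (95% Poisson interval 21.6 to 24.04), followed by GRHL2 at 13.4, SNAI1 at 10.7, ESRP1 at 10.5 and ESRP2 at 3.76. TWIST1 followed at 1.85 and OVOL1 at 1.35, then GRHL3 at 0.870, ZEB1 at 0.353 and ZEB2 at 0.176. The intervals of SNAI1 and ESRP1 overlapped, as did those of TWIST1 and OVOL1, and other neighbours in the order were separated by more than counting error. The control cells thus held transcripts of SNAI1 and SNAI2 beside those of GRHL2 and ESRP1, while both ZEB genes stood at the bottom. With shRNA 1 the order was ESRP1 (21.5), GRHL2 (18.1), GRHL3 (9.82), ESRP2 (6.61), SNAI2 (4.79), OVOL1 (2.93), SNAI1 (1.81), TWIST1 (1.76), ZEB1 (0.0339) and ZEB2 (0.0332), with overlapping intervals for SNAI1 and TWIST1 and for ZEB1 and ZEB2. With shRNA 2 it was GRHL2 (24.7), ESRP1 (18.2), SNAI2 (11.5), GRHL3 (9.18), ESRP2 (7.89), OVOL1 (4.38), SNAI1 (1.54), TWIST1 (1.51), ZEB1 (0.0863) and ZEB2 (0.0241), with overlap for SNAI1 and TWIST1 alone. These levels depend on the gene lengths the authors used, which were 1.00 (SNAI1) to 2.31 (ZEB1) times the merged exons of GENCODE release 29. With the merged exons as the length, ESRP1 moved from the fourth to the second place in the control, at 23.1 CPM per kilobase, and SNAI2 stayed first at 25.3. The hairpin orders changed too. Under shRNA 1, ESRP2 (13.9) passed GRHL3 (12.9). Under shRNA 2, ESRP1 (39.9) passed GRHL2 (29.9), and ESRP2 (16.5) passed SNAI2 (12.8) and GRHL3 (12.1). TWIST1 passed SNAI1 under both hairpins.

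**Figure D1:**
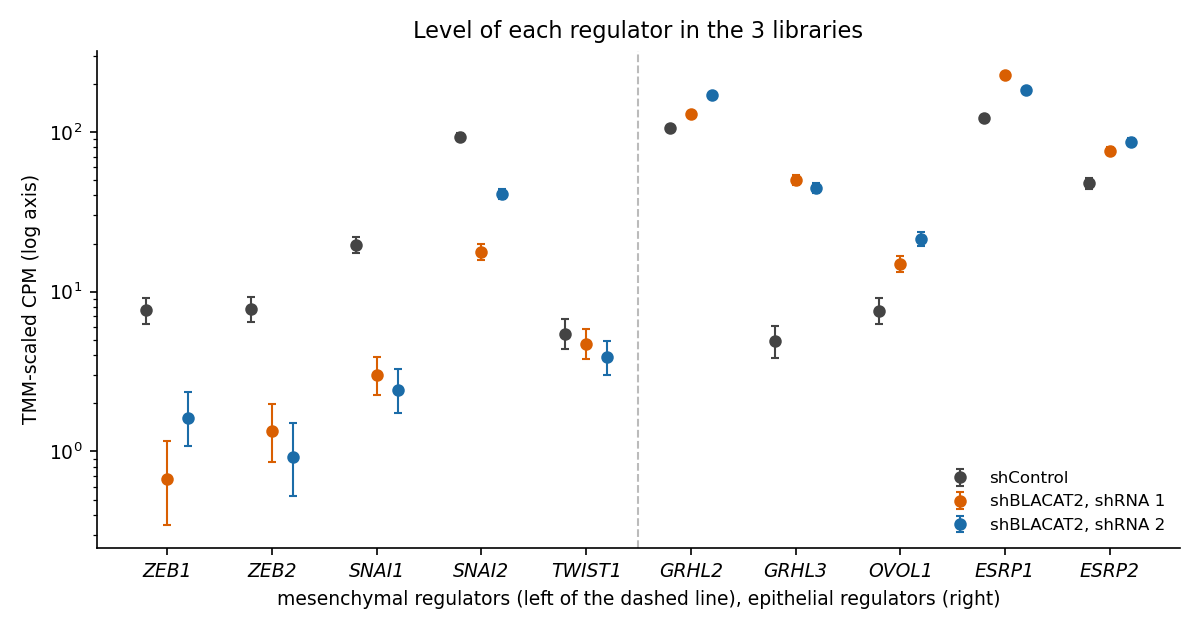
Level of each of the 10 regulators as TMM-scaled CPM on a log axis, in shControl (grey), shRNA 1 (orange) and shRNA 2 (blue). Points are single libraries and bars are exact 95% Poisson intervals of the counts. For ZEB1, ZEB2, SNAI1 and SNAI2 both hairpin libraries lie below the control, for the 5 epithelial regulators both lie above it, and for TWIST1 the bars overlap.

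The mesenchymal regulators were lower and the epithelial ones higher in both libraries labelled with BLACAT2 hairpins. TWIST1 was lower by little, and its ratio interval under shRNA 1, 0.632 to 1.19, included equality with the control. At least 2-fold lower under both were 4 of the 5 mesenchymal regulators (4.51% of the 15132 tested genes were), and at least 2-fold higher under both was 1 of the 5 epithelial regulators, GRHL3 (5.29% of tested genes). At least 1.5-fold away under both were 4 of 5 mesenchymal regulators, all lower (8.54% of tested genes), and 3 of 5 epithelial regulators, all higher (11%). At any size, 5 of 5 mesenchymal regulators were lower under both (34.1% of tested genes) and 5 of 5 epithelial regulators higher under both (37.1%). The 10 regulators were chosen with earlier results of these data known, so their counts beside these shares are no independent check. Both hairpins are set against the same control library, so a shift in that library alone would enter both folds. The median log2 folds were -2.44 under shRNA 1 and -2.16 under shRNA 2 for the mesenchymal side and 0.89 and 0.86 for the epithelial side, beside 0.01 and 0.04 for all tested genes. Both hairpin libraries together were tested against the control by edgeR's quasi-likelihood method (two-sided, p-values adjusted by Benjamini and Hochberg over all tested genes). It passed 0 of the 10 at adjusted p below 0.05, where 6 genes passed in all (0.0397%). Before adjustment 6 of the 10 had edgeR p below 0.05 (10.2% of tested genes), 4 mesenchymal ones lower (5.06%) and 2 epithelial ones, GRHL3 and OVOL1, higher (5.18%). After adjustment, DESeq2 passed 2 of the 10, SNAI1 and GRHL3 (3.49% of tested genes). limma passed 0 (0.00%), with 5 of the 10 at unadjusted p below 0.05.

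**Figure D2:**
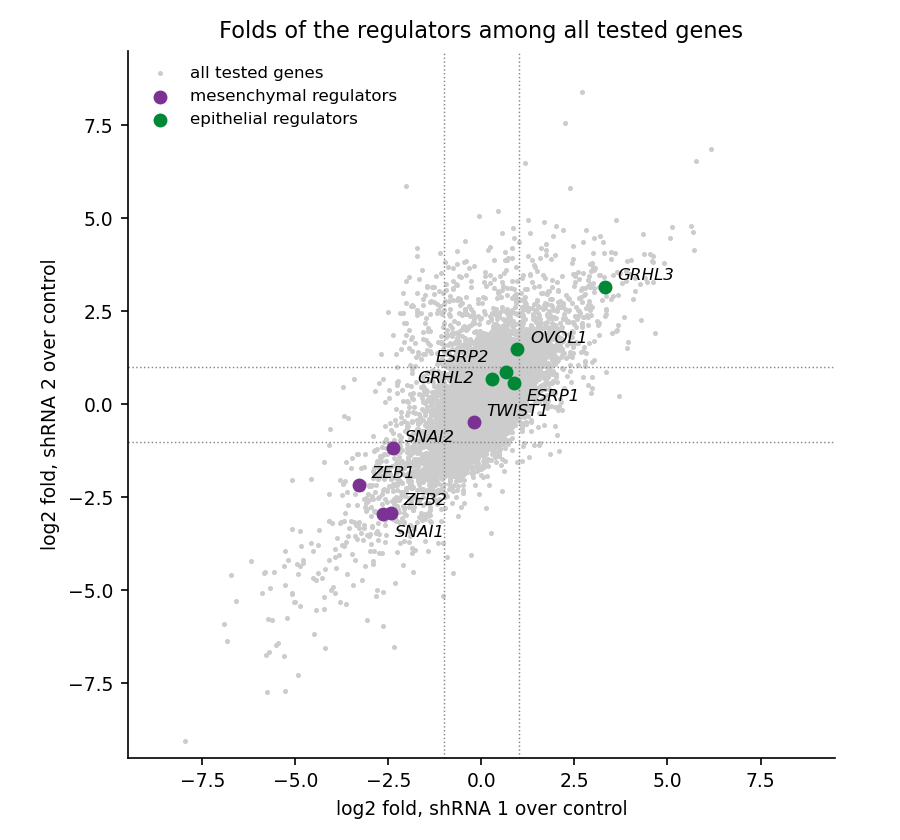
Log2 fold over the control under shRNA 1 (x axis) and shRNA 2 (y axis) for all 15132 tested genes (grey), the 5 mesenchymal regulators (purple) and the 5 epithelial regulators (green). Dotted lines mark 2-fold. SNAI1 lies at -2.65 and -2.94, GRHL3 at 3.33 and 3.16, and TWIST1 inside the dotted lines; both axes use the same control library.

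SNAI1 (ENSG00000124216; hg38, chromosome 20, 49982999 to 49988886) encodes Snail, a zinc finger repressor that is made early and degraded quickly. Its counts were 296 in the control against 54 under shRNA 1 and 42 under shRNA 2. Both hairpin libraries were far below the control and close to each other. The level was 6.49-fold lower under shRNA 1 (ratio 0.154, 95% counting interval 0.113 to 0.207) and 8.02-fold lower under shRNA 2 (ratio 0.125, interval 0.0880 to 0.173). Averaged over the hairpins, the log2 fold came to -2.80 ± 0.21 (SD, n = 2). This SD, like those below, is between 2 hairpins over 1 control library and holds no spread of the control. edgeR gave a log2 fold of -2.84 (SE 0.47) and an adjusted p of 0.120, and DESeq2 an adjusted p of 0.00355.

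SNAI2 (ENSG00000019549; chromosome 8, 48917690 to 48921740) encodes Slug, the paralog of Snail, and had 1408, 318 and 703 counts in the control, shRNA 1 and shRNA 2. The control was highest, and the hairpin libraries differed from each other by more than counting error. Relative to the control it stood at 0.191 times (interval 0.168 to 0.216) and 0.439 times (interval 0.400 to 0.481), or 5.24-fold and 2.28-fold lower, and the level under shRNA 2 was 2.30 times that under shRNA 1 (interval 2.01 to 2.63). Averaged over the hairpins, the log2 fold came to -1.78 ± 0.85 (SD, n = 2), with an edgeR adjusted p of 0.337. Scaled by library totals alone, SNAI2 was less than 2-fold lower under shRNA 2. Because SNAI1 was about as low under either hairpin and SNAI2 was not, the ratio of SNAI2 to SNAI1 FPKM was 2.13 in the control, 2.64 under shRNA 1 and 7.51 under shRNA 2. This ratio does not depend on how the libraries are scaled. SNAI3, the remaining family member, named here once its values were known, had 26, 30 and 68 counts (log2 folds -0.03 and 1.15). Under shRNA 2 its whole ratio interval, 1.44 to 3.76, lay above equality with the control, the opposite direction to SNAI1 and SNAI2. Summed over the 3 genes SNAI FPKM was 34.4, 7.58 and 15.5.

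ZEB1 (ENSG00000148516; chromosome 10, 31318495 to 31529814), a zinc finger and homeodomain repressor, had 116 counts in the control, 12 under shRNA 1 and 28 under shRNA 2. Counts were few in every library and lowest under shRNA 1. The ratio to the control was 0.0874 (interval 0.0439 to 0.159) under shRNA 1 and 0.212 (interval 0.135 to 0.323) under shRNA 2, and between the hairpins 2.43 (interval 1.19 to 5.24). Averaged over the hairpins, the log2 fold came to -2.73 ± 0.81 (SD, n = 2; edgeR adjusted p = 0.263). The antisense RNA ZEB1-AS1, whose locus overlaps ZEB1 on the other strand, had 55, 53 and 74 counts (log2 folds -0.29 and 0.23). The counting tool's use of strand is not given in the sources used here, so reads where the loci overlap may be shared.

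ZEB2 (ENSG00000169554; chromosome 2, 144384081 to 144524583), the paralog of ZEB1, had 118, 24 and 16 counts in the same order. Both hairpin libraries were below the control and did not differ from each other beyond counting error (ratio of shRNA 2 to shRNA 1 0.693, interval 0.344 to 1.36). Against the control the ratios were 0.172 (interval 0.106 to 0.268) and 0.119 (interval 0.0659 to 0.202), a mean log2 fold of -2.68 ± 0.34 (SD, n = 2; edgeR adjusted p = 0.186). ZEB2-AS1 had 0, 1 and 0 counts.

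TWIST1 (ENSG00000122691; chromosome 7, 19020991 to 19117672), a basic helix-loop-helix factor, was the mesenchymal regulator that stayed nearest to the control. It had 83, 85 and 67 counts, so the 3 libraries were similar. The scaled ratios were 0.865 (interval 0.632 to 1.19) and 0.709 (interval 0.506 to 0.990), and the mean log2 fold was -0.34 ± 0.20 (SD, n = 2; edgeR adjusted p = 0.912). A 2-fold loss lies outside both intervals under TMM scaling, by little for shRNA 2. The intervals hold counting error alone, so they cannot exclude such a loss. Its paralog TWIST2, counted with the other mesenchymal regulators below and named here once its values were known, had 436, 171 and 116 counts (log2 folds -1.58 and -2.08). Summed over both genes, TWIST FPKM was 15.98, 6.91 and 5.32, most of it from TWIST2.

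GRHL3 (ENSG00000158055; chromosome 1, 24319322 to 24364482), a grainyhead factor of surface epithelia and of the urothelial umbrella layer, had 74 counts in the control, 898 under shRNA 1 and 771 under shRNA 2. Both hairpin libraries were far above the control. Ratios were 10.3 (interval 8.08 to 13.2) and 9.15 (interval 7.20 to 11.8), and the hairpins differed by little (ratio of shRNA 2 to shRNA 1 0.893, interval 0.810 to 0.984). Averaged over the hairpins, the log2 fold came to 3.24 ± 0.12 (SD, n = 2). edgeR gave 3.28 (SE 0.40) with an adjusted p of 0.0766, rank 52 of 15132 genes by p. STPG1, a protein-coding gene that overlaps GRHL3 on the other strand, had 309, 278 and 502 counts.

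GRHL2 (ENSG00000083307; chromosome 8, 101492432 to 101669726), the grainyhead factor best known for opposing ZEB1, was already well expressed in the control. Its counts were 1606, 2337 and 2934, lowest in the control and highest under shRNA 2. Ratios were 1.23 (interval 1.15 to 1.31) and 1.60 (interval 1.51 to 1.71), a mean log2 fold of 0.49 ± 0.27 (SD, n = 2; edgeR adjusted p = 0.760). GRHL1, the remaining family member, named here once its values were known, had 191, 620 and 545 counts (log2 folds 1.45 and 1.32). The FPKM of GRHL3 was 0.0651 times that of GRHL2 in the control, 0.543 times under shRNA 1 and 0.371 times under shRNA 2, and summed over the 3 genes grainyhead FPKM was 15.3, 31.0 and 36.9.

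OVOL1 (ENSG00000172818; chromosome 11, 65787022 to 65797219), a zinc finger repressor of mesenchymal genes, had 115, 268 and 368 counts. The control was lowest and shRNA 2 highest. Ratios of 1.97 (interval 1.58 to 2.47) and 2.81 (interval 2.27 to 3.50) put it just short of 2-fold under shRNA 1 and above it under shRNA 2, and the mean log2 fold was 1.22 ± 0.36 (SD, n = 2; edgeR adjusted p = 0.455). Scaled by library totals alone, it passed 2-fold under both. Its paralog OVOL2, named here once its values were known, had 236, 220 and 232 counts (log2 folds -0.34 and -0.21). Under shRNA 1 the whole ratio interval of OVOL2 lay below equality with the control, the opposite direction to OVOL1. Under shRNA 2 the interval of OVOL2, 0.717 to 1.04, included equality, and the difference from OVOL1 was not tested.

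ESRP1 (ENSG00000104413; chromosome 8, 94641074 to 94707466) had 1847 counts in the control, 4045 under shRNA 1 and 3154 under shRNA 2. It was higher under both hairpins, more so under shRNA 1, at log2 folds of 0.89 and 0.58 (ratio intervals 1.75 to 1.96 and 1.42 to 1.59). Averaged over the hairpins, the log2 fold came to 0.74 ± 0.21 (SD, n = 2; edgeR adjusted p = 0.595). ESRP2 (ENSG00000103067; chromosome 16, 68229111 to 68238102) had 721, 1362 and 1493 counts, and ratios of 1.60 (interval 1.46 to 1.75) and 1.82 (interval 1.66 to 1.99). Here the order of the hairpins was the opposite, with a mean log2 fold of 0.77 ± 0.13 (SD, n = 2; edgeR adjusted p = 0.514). ESRP1 to ESRP2 FPKM stood at 2.80, 3.25 and 2.31, so the paralogs kept similar proportions while GRHL3 and GRHL2 did not. At its end the ESRP2 locus overlaps NFATC3 on the other strand, which had 664, 716 and 660 counts.

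Within a library, the split between the sides does not depend on scaling. Of all counts on the 10 regulators, the mesenchymal side took 2021 of 6384 in the control (31.7%, exact Clopper-Pearson 95% interval 30.5% to 32.8%), 493 of 9403 under shRNA 1 (5.24%, interval 4.80% to 5.71%) and 856 of 9576 under shRNA 2 (8.94%, interval 8.37% to 9.53%). These intervals and all others on counts reflect counting error alone, as each is computed from single libraries. Molecular identifiers were not used in the counts, so duplicate reads may make the intervals too narrow. In FPKM, mesenchymal regulators summed to 35.9, 8.43 and 14.7 and epithelial ones to 29.9, 58.9 and 64.4, a mesenchymal share of 54.5%, 12.5% and 18.6%. Per kilobase of merged GENCODE exons the share was 44.1%, 8.82% and 13.7%. SNAI2 made up 63.6%, 56.8% and 78.5% of the mesenchymal FPKM. Without it the share was 30.4%, 5.82% and 4.67%, so the difference between hairpins in this share came from SNAI2. The ratio of ESRP1 to SNAI2 FPKM went from 0.462 in the control to 4.48 under shRNA 1 and 1.58 under shRNA 2, and that of GRHL2 to SNAI2 from 0.586 to 3.78 and 2.14. The size of these ratios within a library depends on the authors' gene lengths. Per kilobase of merged exons, ESRP1 stood at 23.1 CPM in the control and SNAI2 at 25.3.

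**Figure D3:**
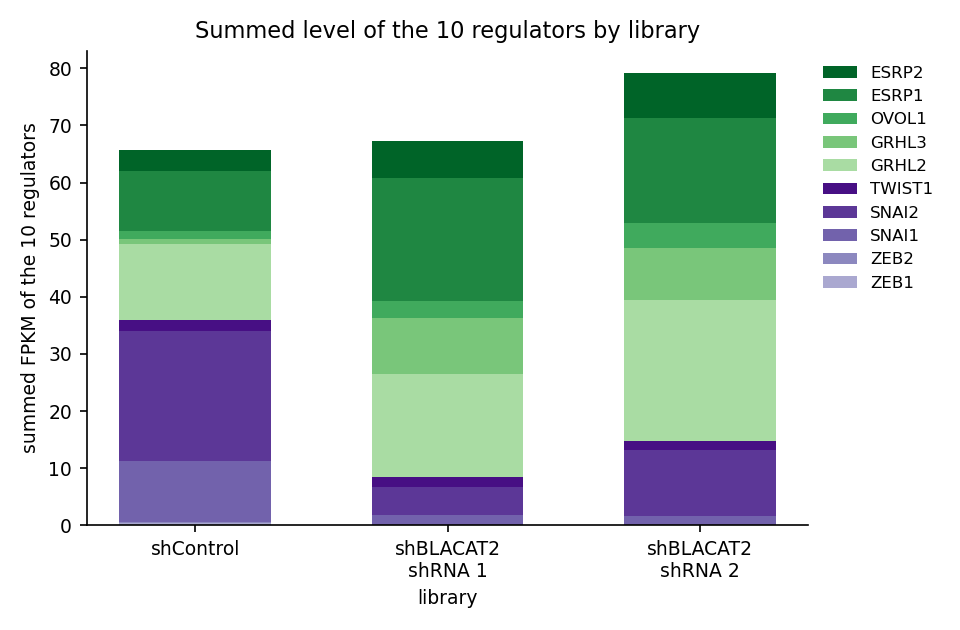
Summed FPKM of the 10 regulators in each library, with mesenchymal regulators in purple and epithelial regulators in green, stacked from 0. The purple part is 35.9 of the sum in shControl, 8.43 under shRNA 1 and 14.7 under shRNA 2, and the green part 29.9, 58.9 and 64.4; ZEB1 and ZEB2 are too low to be seen.

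Further regulators of either state came from lists that, like the 10 regulators, were chosen with earlier results of these data known. Counts of these lists and those below are therefore no independent check of the pattern above. Over all tested genes, the shares to read the counts of each list against are 4.51% at least 2-fold lower and 5.29% at least 2-fold higher under both hairpins, 10.2% at unadjusted edgeR p below 0.05 and 3.49% by DESeq2. Of 19 other mesenchymal regulators 16 were tested, 7 were at least 2-fold lower under both hairpins (4.51% of tested genes) and 2 higher (5.29%), with medians of -1.16 and -1.01. TBX3, a T-box repressor, had 2821 counts in the control, 418 under shRNA 1 and 283 under shRNA 2 (log2 folds -2.99 and -3.50), and SOX4, a factor of TGF-beta responses, 1886, 425 and 252 (-2.39 and -3.08). MSX1, a homeobox gene, had 268, 80 and 80 (-1.96 and -1.90). The forkhead gene FOXQ1 went the other way, with 11, 146 and 242 counts (3.29 and 4.07). PRRX1, a homeobox gene of mesenchyme named once its values were known, had 0 counts in all 3 libraries. edgeR passed 0 of the 16, 8 had unadjusted p below 0.05, and DESeq2 passed 4, 1 higher and 3 lower.

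Of 19 other epithelial regulators 14 were tested, 5 were at least 2-fold higher under both hairpins (5.29% of tested genes) and 1 lower (4.51%), with medians of 0.76 and 0.81. A single lower gene of 14 is near the share over all genes. The ETS factors of epithelia ELF3 (373, 3083 and 2542 counts, log2 folds 2.80 and 2.58) and EHF (553, 2409 and 2648, 1.88 and 2.07) were highest by fold. TFCP2L1, a factor related to grainyhead, had 57, 180 and 274 (1.39 and 2.04). TP63, the basal layer factor, was lower under both, at 85, 8 and 13 counts (-3.34 and -2.71). edgeR passed 0 of the 14 (7 at unadjusted p below 0.05) and DESeq2 2, both higher.

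**Figure D4:**
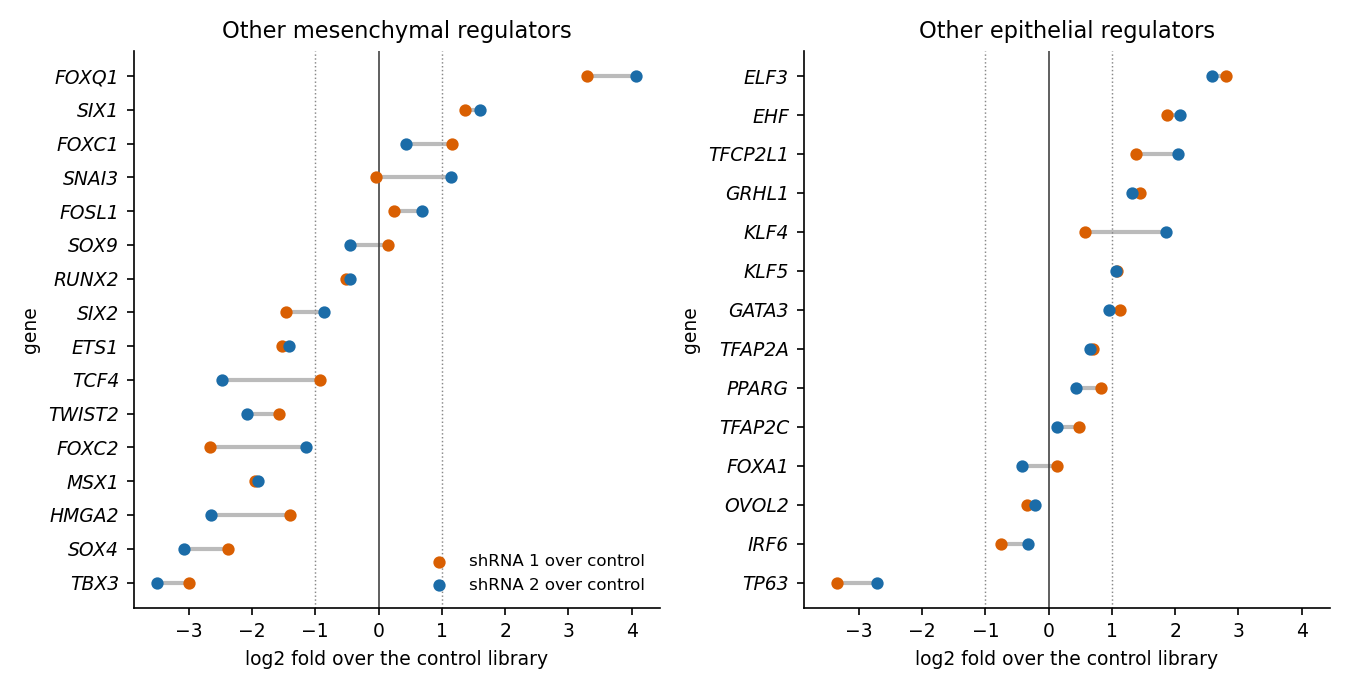
Log2 folds over the control of the 16 tested other mesenchymal regulators (left) and the 14 tested other epithelial regulators (right), with shRNA 1 in orange, shRNA 2 in blue and a grey bar between them. Dotted lines mark 2-fold. TBX3 and SOX4 lie lowest and FOXQ1 highest on the left, and ELF3 highest and TP63 lowest on the right.

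Genes that the regulators are known to act on were counted next. Of 31 epithelial junction and polarity genes, all tested, 8 were at least 2-fold higher under both hairpins (5.29% of tested genes) and 1 lower (4.51%), the latter near the share over all genes, with medians of 0.65 and 0.70. The claudin CLDN3 had 7, 83 and 79 counts, CLDN7 537, 2095 and 2052 and the vesicle protein gene MAL2 1653, 8897 and 9338. The gene lower by that size was DSP, of desmosomes, with 71458, 15307 and 21490. Of 24 mesenchymal structural genes, 19 were at least 2-fold lower under both (4.51% of tested genes) and 1 was higher (5.29%), with medians of -2.93 and -4.00, and CDH2 (N-cadherin) had 3277, 125 and 22 counts. The hairpin difference seen for SNAI2 was not shared by CDH2, which was lower under shRNA 2 than under shRNA 1. edgeR passed 0 and 1 of these lists (11 and 20 at unadjusted p below 0.05) and DESeq2 5 and 14.

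Among 14 genes whose transcripts ESRP proteins are known to splice, 2 were at least 2-fold higher (5.29% of tested genes) and 1 lower (4.51%) under both hairpins, by total counts. With so few genes these counts are near the shares over all genes and are no result about the list. FGFR2, whose epithelial exon is the classic ESRP target, had 218, 814 and 886 counts (log2 folds 1.65 and 1.83), RALGPS2 635, 2533 and 1511 (1.75 and 1.06), and FGFR1, the receptor of mesenchymal cells, 243, 41 and 77 (-2.75 and -1.82). Gene totals do not separate splice forms, so exon use was not tested. Of 13 other splicing regulators of these transitions 12 were tested and 3 were at least 2-fold higher under both (5.29% of tested genes): RBM47 (155, 597 and 522 counts), MBNL3 (171, 496 and 602) and MBNL2 (721, 2005 and 3275). RBFOX2 and QKI, which favour mesenchymal splice forms and were named once their values were known, had log2 folds of -0.40 and -0.48 and of -0.17 and 0.31. edgeR passed 0 of either list (3 and 3 at unadjusted p below 0.05) and DESeq2 1 of each.

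Genes that act on the repressor proteins were counted last. Of 22 corepressors and coactivators of the ZEB and SNAI proteins 0 were at least 2-fold away under both hairpins (4.51% of tested genes were lower and 5.29% higher, so lists of this size would hold few such genes), with medians of -0.14 and 0.09, and the demethylase gene KDM1A had 6140, 8155 and 3060 counts (log2 folds 0.17 and -1.19) and SMARCA4 4823, 4857 and 4081. Of 20 genes of the turnover of SNAI, TWIST and ZEB proteins again 0 were, with medians of -0.10 and 0.05, and CSNK2A1 (3602, 4039 and 3111) and USP10 (2472, 2761 and 3212) had the highest levels. edgeR and DESeq2 passed 0 of either list, with 1 and 0 at unadjusted edgeR p below 0.05. Of host genes of microRNAs that repress these factors, MIR205HG had 1076, 1819 and 735 counts, and MIR34AHG 82, 69 and 211. MIR200CHG, the host gene of part of the miR-200 family named once its values were known, had 9, 8 and 10 counts, too few for the filter (log2 folds -0.34 and -0.03). The listed microRNA genes themselves (MIR200C, MIR141, MIR200A, MIR200B, MIR429, MIR205 and MIR34A) were not found among the genes read, so they could not be analysed.

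By their pair of log2 folds, the genes nearest to GRHL3 among those tested were ITGB8 (3.30 and 3.10, distance 0.0674), SLCO4A1 (3.27 and 3.21, distance 0.0783) and ARL14EPL (3.29 and 3.41, distance 0.249). Nearest to SNAI1 were TNF (-2.70 and -3.07, distance 0.135), GAS1 (-2.60 and -3.10, distance 0.168) and CYP24A1 (-2.85 and -2.87, distance 0.209). The distance is Euclidean over 2 folds that share 1 control, and 3 libraries can place many genes close together.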

How the data were processed

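RNA sequencing counts and FPKM were measured in 3 libraries of UM-UC-3 cells. The submitters' processing notes name TopHat2 2.0.9 and hg38. For counting, neither tool nor use of strand nor annotation release is given in the sources used here; the labels name a stranded kit. The deposited table holds raw counts per gene and FPKM, which the authors computed from those counts. FPKM changed between libraries only by 1 constant per library (1.07579 to 1.07586 for shRNA 1 over 13333 genes), so counts were used for tests and FPKM for levels between genes. The row of TGFB1 was broken over 4 lines and left out.

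Tests covered the 15132 genes that averaged 1 CPM or more. Folds are log2 ratios of TMM-scaled CPM with a prior count of 2. The group test was edgeR 4.0.16 glmQLFTest in R 4.3.3, with DESeq2 1.42.0 and limma 3.58.1 as alternatives. With 1 control, its spread is taken to equal that between hairpins. Ratios have exact conditional binomial intervals at the 95% level. The test was tried on simulated data with known changes.

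The 10 regulators and all lists were chosen with earlier results of these data known. Named were the 10 regulators, LINC00958, and per list up to 4 genes at least 2-fold away in 1 direction under both hairpins, ranked by the smaller fold, or else the 2 of highest mean CPM. Of 209 listed genes, 202 were found in the table. Genes nearest in pattern were taken for the regulators with the highest and lowest smaller fold. Of the cell type lists, UPK1B (306, 2311 and 923 counts) and UPK2 (35, 108 and 104) of the urothelial list, 2 of 8 tested, were 2-fold or more above the control in each hairpin library. Leukocyte markers summed to 132, 130 and 148 CPM, most of it CD74 (1955, 2308 and 2242 counts), with ITGAM at 19, 6 and 288. Endothelial markers summed to 2.57, 3.56 and 8.05 CPM, with CDH5 at 18, 42 and 66 counts and KDR at 13, 4 and 41.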

Additional observations from a re-analysis of the deposited data

How the results depend on the processing

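No paired analysis was possible because the control has 1 library and carries no replicate number. All 50 recomputed folds of the 10 regulators (5 alternatives each: DESeq2's size factors, library totals, a prior count of 0.5, and either hairpin alone) kept their direction, and 48 lay within 1 SD of the value given. For either hairpin alone this was fixed in advance. Such a value lies within 1 SD of the mean of both by arithmetic, and both hairpins had the same direction for each regulator. Only the other alternatives could have moved or reversed a fold. With library totals, which put the median log2 fold of all tested genes at 0.14 and 0.24, GRHL3 moved to 3.41 and ESRP2 to 0.94. At least 2-fold higher under both hairpins were 1 of the 10, against 2 with library totals and 3 at a threshold of 1.5-fold; with 1 hairpin left out the count was 1 to 2. At least 2-fold lower were 4, against 3 with library totals (SNAI2 dropped out), and 4 when either hairpin was left out. A count that needs both hairpins cannot fall when either is left out. The gene added with library totals, and when shRNA 1 was left out, was OVOL1. Over all genes 6 passed edgeR's test and 528 DESeq2's, and 0 passed with limma, without the filter on low counts or with a mean of at least 5 CPM (1424, 1461 and 1240 at unadjusted p below 0.05). Of the 10 regulators, 2 passed DESeq2's test and 0 the others. Over all tests run, the adjusted p of SNAI1 ranged from 0.00355 to 0.747. ZEB1, ZEB2 and TWIST1 were below the 5 CPM filter. With 12 counts for ZEB1 under shRNA 1, counting error alone spanned several fold (0.0175 to 0.0593 FPKM). In the control, intervals were narrower, at 0.292 to 0.423 FPKM for ZEB1 (116 counts) and 0.145 to 0.210 for ZEB2 (118 counts).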
